A study of Homo sapiens with 8 samples.

Results

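The glycolytic enzymes described here are the products of 10 genes, HK1, HK2, PFKL, PFKM, PFKP, ALDOA, PGK1, PKM, LDHA and LDHB. Each was matched by its symbol to the probe sets of the array that carry a single gene symbol, and each had 1 such probe set, so that the rule of taking the brightest one left nothing to choose. They are 10 of 22392 genes measured in this way. RNA was taken from the Caco-2 line, which derives from a human colorectal adenocarcinoma and grows into a monolayer resembling enterocytes. The cells had grown until day 21 in a microfluidic gut-on-chip under a continuous flow of 100 µL/h, with a wall shear near 0.002 dyne/cm2, or without flow on Transwell PET inserts of 1.12 cm2 whose medium was changed every few days. Seeding density (75000 cells per cm2) and the named medium were the same, and 4 samples of each were hybridised to Affymetrix arrays, 1 array per sample. The paper mentions sodium bicarbonate in this medium only where it describes the chip culture. Both groups are the same untreated line, with no transgene, drug or genotype between them, and its passage is given only as a range that is not assigned to samples. Flow, device, renewal of medium and the way of lysing the cells differed together between the groups, so their effects cannot be told apart. Nothing states that the 4 samples of a group came from separate experiments, so every FDR is relative to a spread that may be no more than technical.

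Glycolysis splits glucose into pyruvate in the cytosol, and lactate dehydrogenase then turns pyruvate into lactate when pyruvate is not burned in mitochondria. Hexokinases trap glucose as glucose-6-phosphate, and phosphofructokinase performs the committed step, which is the main point of control. Several steps are served by isozymes from separate genes that differ in tissue and regulation. Enterocytes are known for moving glucose on to the blood and for using glutamine as a fuel, whereas carcinoma cells typically run glycolysis to lactate.

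All 8 arrays had median levels between 2.462 and 2.485, since the deposited values had been normalized to a common distribution, so each level is relative to its array and not an amount of RNA per cell. Levels are given as RMA values on the log2 scale, and a level of 1 probe set is not compared with that of another. The epithelial markers CDH1 (mean level 11.69 in gut-on-chip cells and 11.74 in Transwell cells) and EPCAM (11.29 in gut-on-chip cells and 11.26 in Transwell cells) were well above the array medians. Of 11 measured enterocyte and colon epithelium markers, 2 were upregulated and 4 downregulated. SI, which encodes the brush border enzyme sucrase-isomaltase, had a mean level of 4.66 in gut-on-chip cells and 9.86 in Transwell cells (log2FC = -5.20, FDR = 3.95e-05 from limma). VIL1 (-1.01), the alkaline phosphatase gene ALPI (-0.87) and CDX2 (-0.53) were downregulated too, of which ALPI had an FDR of up to 0.0242 and CDX2 of up to 0.0146 without Transwell replicate 2, while the keratin genes KRT18 (0.98) and KRT19 (0.74) were upregulated. Means of gut-on-chip arrays and then of Transwell arrays lay at 2.48 to 2.84 and 1.78 to 2.25 for the endothelial marker list, at 3.27 to 3.59 and 3.55 to 3.62 for leukocytes, at 3.49 to 3.73 and 3.60 to 4.02 for fibroblasts, and at 2.53 to 2.77 and 2.48 to 3.06 for muscle. Of the 14 measured genes of these lists, CDH5 was upregulated (mean level 3.95 in gut-on-chip cells and 2.11 in Transwell cells), COL1A1 was downregulated (4.43 in gut-on-chip cells and 5.19 in Transwell cells, with an FDR of 0.00876 and up to 0.0315 without Transwell replicate 4), and the other 12 did not pass the test. Of the leukocyte markers, CD14 had mean levels of 6.49 in gut-on-chip cells and 6.91 in Transwell cells, above the array medians, and CD3E (2.39 in gut-on-chip cells and 2.37 in Transwell cells) and PTPRC (1.35 in gut-on-chip cells and 1.51 in Transwell cells) lay below them. The part of these marker lists in the results was not tested.

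Of the 10 enzymes, 1 was upregulated and 1 downregulated in gut-on-chip cells (FDR threshold 0.01), and 8 did not pass the test. Among all 22392 genes, 15.8% passed it (8.72% upregulated and 7.06% downregulated), and among all 53617 probe sets 9.57% did (5.16% upregulated and 4.41% downregulated). Among the 6553 genes whose mean level lay within the range of the enzymes, from 5.70 to 10.49, 35.4% passed (1308 upregulated, and 1010 or 15.4% downregulated), a range chosen after the values were seen. The upregulated enzyme was HK1 and the downregulated one was PFKL, so each of the first and the third step of the pathway had 1 member that moved. The median log2FC of the 10 enzymes was -0.05, beside 0.01 over all genes, and the median size of the change without its sign was 0.17, beside 0.23 over all genes. For 3 enzymes, HK1, PFKL and PFKM, the arrays of both systems did not overlap, which was so for 30.7% of all genes (17.0% higher and 13.6% lower in gut-on-chip cells). Bulk RNA does not tell fewer cells that use a gene from less of its RNA in each cell.

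**Figure D1:**
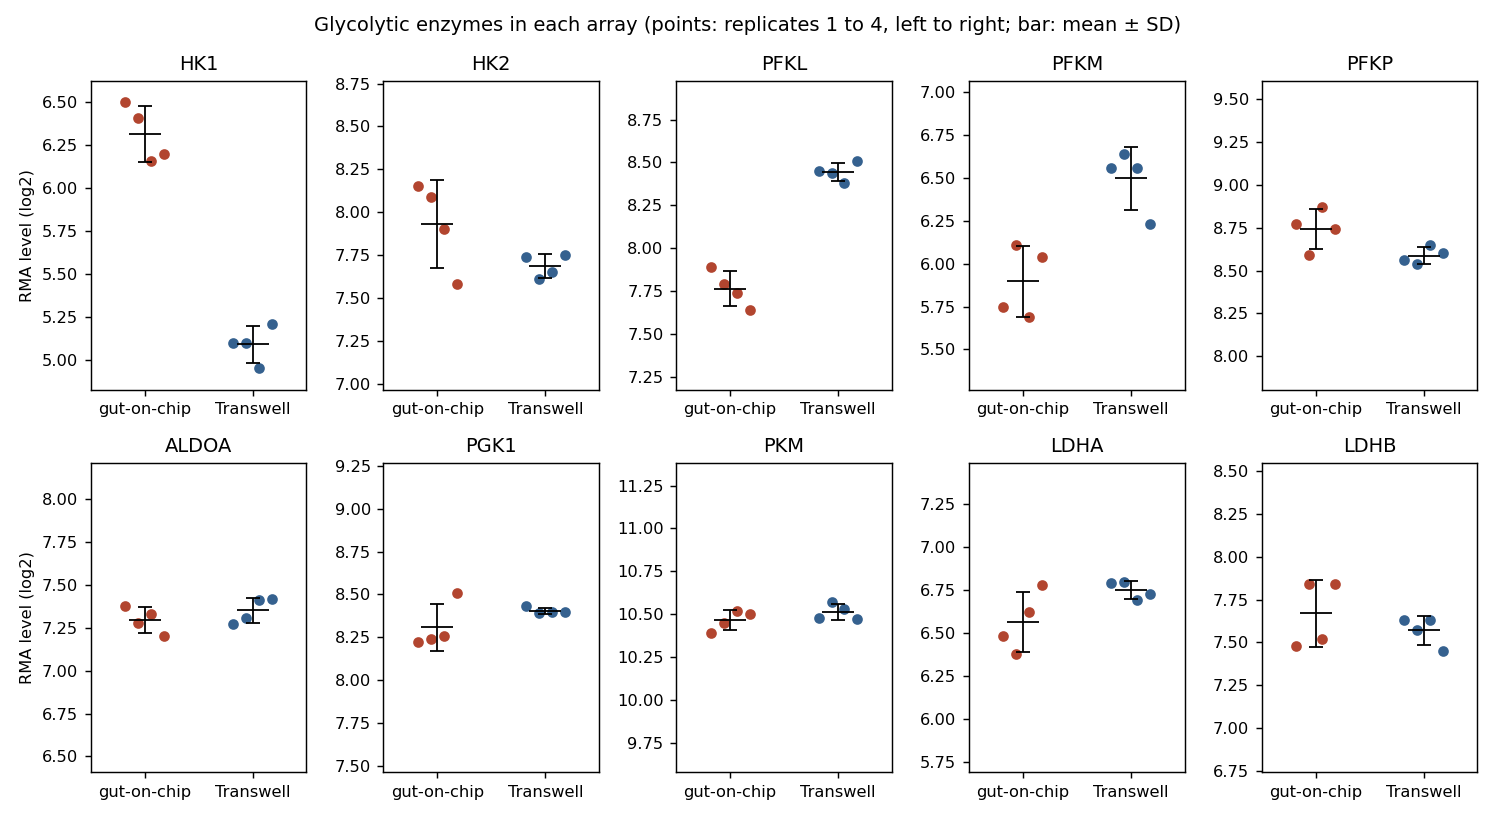
RMA levels on the log2 scale (y axis, each panel spanning the same range) of the 10 glycolytic enzymes in 4 gut-on-chip arrays (red) and 4 Transwell arrays (blue), with the mean and SD of each group. HK1 lies between 6.16 and 6.50 in the gut-on-chip, above every Transwell array, PFKL lies between 7.64 and 7.89, below every Transwell array, and most other panels overlap.

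HK1 and PFKL were the enzymes that passed the test, and the 250 bases before a start of each gene are shown for them. They are set beside the same stretch of PGK1 and LDHA, whose promoters are textbook targets of the hypoxia-inducible factors and whose levels did not pass the test. Capitals mark ACGTG on either strand, the common core of the hypoxia response element, and a run of CACGTG is a pair of overlapping matches on both strands. The stretches come from RefSeq on GRCh38.p14 and lie on the plus strand, at chr10:69317931-69318180 for HK1, chr21:44299803-44300052 for PFKL, chrX:78103998-78104247 for PGK1 and chr11:18394313-18394562 for LDHA. The probe sets do not show which start was used, and the stretch for HK1 belongs to 1 of 7 starts listed. The stretch for LDHA belongs to 1 of 2 starts listed, and the same stretch before its other start holds no ACGTG.
HK1: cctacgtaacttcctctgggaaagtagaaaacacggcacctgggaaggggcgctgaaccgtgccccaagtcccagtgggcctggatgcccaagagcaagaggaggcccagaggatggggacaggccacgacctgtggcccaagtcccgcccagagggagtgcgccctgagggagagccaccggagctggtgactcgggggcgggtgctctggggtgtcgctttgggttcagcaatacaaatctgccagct
PFKL: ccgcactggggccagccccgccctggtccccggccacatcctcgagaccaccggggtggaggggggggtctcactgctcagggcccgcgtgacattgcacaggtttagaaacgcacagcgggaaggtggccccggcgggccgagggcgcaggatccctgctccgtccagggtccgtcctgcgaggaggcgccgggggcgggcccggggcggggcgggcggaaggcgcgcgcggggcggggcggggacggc
PGK1: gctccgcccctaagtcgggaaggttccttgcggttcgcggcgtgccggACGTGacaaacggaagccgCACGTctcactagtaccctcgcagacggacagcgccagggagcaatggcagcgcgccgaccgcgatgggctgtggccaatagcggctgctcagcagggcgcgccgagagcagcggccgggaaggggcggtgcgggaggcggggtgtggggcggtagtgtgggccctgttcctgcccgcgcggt
LDHA: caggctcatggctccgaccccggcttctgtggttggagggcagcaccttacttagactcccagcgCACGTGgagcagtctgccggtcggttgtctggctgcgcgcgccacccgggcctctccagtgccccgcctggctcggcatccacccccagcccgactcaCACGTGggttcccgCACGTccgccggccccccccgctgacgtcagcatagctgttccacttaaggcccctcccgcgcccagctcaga

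Windows from 250 bases before to 50 bases after a start were matched for all 10 enzymes, 29 windows in all, and were searched for ACGTG on both strands and for CACGTG, the E-box that MYC and related factors can bind. ACGTG was found in none of the 7 windows of HK1 and not in the window of PFKL. It was found in at least 1 window of HK2, PFKM, PFKP, ALDOA, PGK1 and LDHA, which is 6 of 10 enzymes, and in no window of PKM or LDHB. Over all genes with such a window, 24.9% of 27305 held it at least once. A gene with more windows has more chances to hold it, and HK1 and PFKM had 7 each. Windows of the same gene can overlap and are not independent, and the matches in 2 windows of PFKM are the same bases. Counted by window, with such repeats included, ACGTG was in 10 of the 29 windows of the enzymes, beside 21.4% of all 35116 windows. The difference was not tested. CACGTG was found in 1 window each of HK2, ALDOA and LDHA, and in 7.26% of all windows. A match is a run of letters and not a measured site, and a missing match says only that these letters are not in the window.

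HK1 encodes hexokinase 1, the widely expressed form that binds the outer mitochondrial membrane. Its level was 6.50, 6.41, 6.16 and 6.20 in the gut-on-chip arrays, against 5.10, 5.10, 4.95 and 5.21 in the Transwell arrays. Every gut-on-chip array lay above every Transwell array, by a margin wider than the spread of either group. Its mean was 6.32 ± 0.16 in gut-on-chip cells and 5.09 ± 0.11 in Transwell cells (SD, n = 4 each), a 2.34-fold higher level (log2FC = 1.23, SE 0.12, FDR = 6.93e-05 from limma). It ranked 435 of 22392 genes by log2FC. With any 1 array left out, its log2FC stayed between 1.17 and 1.28.

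HK2 encodes hexokinase 2, the form typical of muscle, fat and many tumors. Its level was 8.15, 8.09, 7.90 and 7.58 in the gut-on-chip arrays, against 7.74, 7.61, 7.65 and 7.75 in the Transwell arrays. Gut-on-chip replicates 1 to 3 lay above every Transwell array, and replicate 4 lay below them all. The log2FC was 0.25 (95% interval -0.02 to 0.51, FDR = 0.236 from limma), and without gut-on-chip replicate 4 it was 0.36, with an FDR of 0.025.

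PFKL encodes the liver type of phosphofructokinase. Its level was 7.89, 7.79, 7.74 and 7.64 in the gut-on-chip arrays, against 8.45, 8.44, 8.38 and 8.51 in the Transwell arrays. The gut-on-chip arrays were all lower, with no overlap, and the Transwell arrays lay close together. The mean was 7.77 ± 0.11 in gut-on-chip cells and 8.44 ± 0.05 in Transwell cells (SD, n = 4 each), so that the gut-on-chip had 0.626 of the Transwell level (log2FC = -0.67, SE 0.07, FDR = 1.82e-04 from limma). Counted from the lowest log2FC, it ranked 1459 of 22392 genes. With any 1 array left out, its log2FC stayed between -0.72 and -0.63.

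PFKM, the muscle type of the same enzyme, had levels of 5.75, 6.11, 5.69 and 6.04 in the gut-on-chip arrays, against 6.56, 6.64, 6.56 and 6.23 in the Transwell arrays. The groups did not overlap, although Transwell replicate 4 came close to gut-on-chip replicate 2. The log2FC was -0.60 (95% interval -0.89 to -0.30) with an FDR of 0.0121 from limma, just beyond the threshold, and it was -0.69 with an FDR of 0.00876 without Transwell replicate 4. Without any other single array the FDR was 0.0102 to 0.0425. PFKP, the platelet type, had levels of 8.77, 8.59, 8.87 and 8.74 in the gut-on-chip arrays, against 8.56, 8.54, 8.65 and 8.60 in the Transwell arrays. Its groups overlapped through gut-on-chip replicate 2 (log2FC = 0.16, 95% interval -0.005 to 0.32, FDR = 0.209 from limma).

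**Figure D2:**
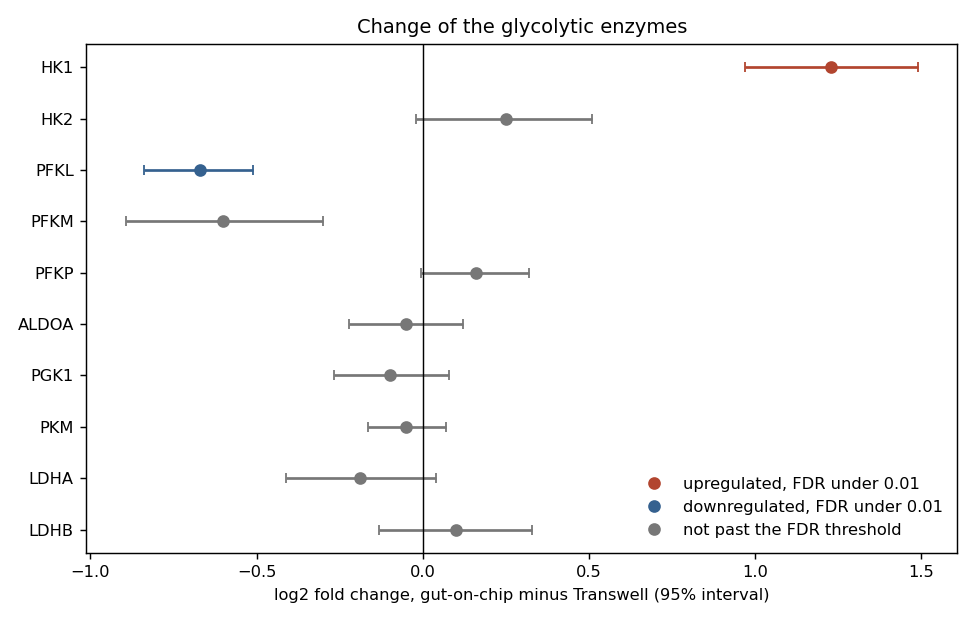
Log2 fold change of each enzyme, gut-on-chip minus Transwell (x axis), with its 95% interval from the limma fit, in the order of the pathway from top to bottom. HK1 at 1.23 and PFKL at -0.67 passed the FDR threshold, PFKM at -0.60 did not, and the intervals of the other 7 enzymes include 0.

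None of the enzymes that follow phosphofructokinase passed the test. ALDOA encodes aldolase A, which cleaves fructose-1,6-bisphosphate, and its level lay between 7.20 and 7.38 in gut-on-chip cells and between 7.27 and 7.42 in Transwell cells. The log2FC was -0.05 (95% interval -0.22 to 0.12, FDR = 0.745 from limma). PGK1 encodes phosphoglycerate kinase 1, the first step that gains ATP. Its level was 8.22, 8.24, 8.26 and 8.51 in the gut-on-chip arrays, against 8.43, 8.39, 8.40 and 8.40 in the Transwell arrays. Gut-on-chip replicates 1 to 3 lay below every Transwell array and replicate 4 above them, and the log2FC was -0.10 (95% interval -0.27 to 0.08, FDR = 0.518 from limma).

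PKM encodes the M type of pyruvate kinase, which makes pyruvate and ATP, and its M1 and M2 splice forms are not separated by its single probe set. Its level lay between 10.39 and 10.52 in gut-on-chip cells and between 10.47 and 10.57 in Transwell cells. The groups overlapped, and the log2FC had the narrowest interval of the 10 enzymes (log2FC = -0.05, 95% interval -0.16 to 0.07, FDR = 0.682 from limma).

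LDHA encodes the lactate dehydrogenase subunit that prevails in muscle and tumors, and LDHB the one that prevails in heart. LDHA had levels of 6.48, 6.38, 6.62 and 6.78 in the gut-on-chip arrays, against 6.79, 6.80, 6.69 and 6.73 in the Transwell arrays. Gut-on-chip replicates 1 to 3 were below every Transwell array and replicate 4 was among them (log2FC = -0.19, 95% interval -0.41 to 0.04, FDR = 0.289 from limma). LDHB had levels of 7.48, 7.84, 7.52 and 7.84 in the gut-on-chip arrays, against 7.63, 7.57, 7.63 and 7.45 in the Transwell arrays. Gut-on-chip replicates 2 and 4 were above every Transwell array and replicates 1 and 3 were within their range (log2FC = 0.10, 95% interval -0.13 to 0.33, FDR = 0.637 from limma). RefSeq lists pseudogenes of LDHA, LDHB and PGK1, and whether their copies add to the signal of these probe sets was not tested.

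Isozymes of the same step were compared within each array, as the difference between their log2 levels, which is free of any scaling of the whole array. Such a difference shows unequal change of a pair and not which of them changed. Of 7 pairs, 6 had both genes measured, and each was compared between the culture systems by an exact two-sided permutation test, in which 4 against 4 arrays allow 70 splits and a smallest p of 0.0286. HK2 minus HK1 was 1.66, 1.68, 1.75 and 1.38 in the gut-on-chip arrays, against 2.64, 2.52, 2.70 and 2.54 in the Transwell arrays. The difference between the groups was -0.98, with no overlap (exact p = 0.0286, 0.0429 adjusted over the 6 pairs), so HK1 was higher relative to HK2 in each gut-on-chip array. Each pair that reached this p holds a gene whose own arrays did not overlap (HK1, PFKL, ALDOC or PKLR), and its partner overlapped. The test of such a pair is therefore not evidence apart from the change of that gene.

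PFKP minus PFKL was 0.87, 0.80, 1.13 and 1.10 in the gut-on-chip arrays, against 0.11, 0.10, 0.27 and 0.09 in the Transwell arrays, again with no overlap (difference 0.83, exact p = 0.0286, adjusted 0.0429). PFKM minus PFKL averaged -1.87 ± 0.27 in gut-on-chip cells and -1.95 ± 0.23 in Transwell cells (SD, n = 4 each), with overlapping arrays (difference 0.08, exact p = 0.714, adjusted 0.714). The platelet type was thus higher relative to the liver type in the gut-on-chip, while for the muscle type no such shift was detectable with 4 arrays a group.

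ALDOA minus ALDOC, the brain type of aldolase, was 0.62 ± 0.26 in gut-on-chip cells and -0.33 ± 0.14 in Transwell cells (SD, n = 4 each, difference 0.95, exact p = 0.0286, adjusted 0.0429). PKM minus PKLR, the pyruvate kinase of liver and red blood cells, was 6.96 ± 0.10 in gut-on-chip cells and 6.25 ± 0.33 in Transwell cells (SD, n = 4 each, difference 0.71, exact p = 0.0286, adjusted 0.0429). Transwell replicate 1 was at 6.73 and the other Transwell arrays were between 5.98 and 6.16. For both pairs the arrays did not overlap. LDHA minus LDHB was -1.0, -1.46, -0.90 and -1.06 in the gut-on-chip arrays, against -0.85, -0.76, -0.94 and -0.72 in the Transwell arrays, which overlapped through gut-on-chip replicate 3 (difference -0.29, exact p = 0.0571, adjusted 0.0686). Without that array the difference was -0.35, with an adjusted p of 0.0429. Without gut-on-chip replicate 2 the difference was -0.17, with an adjusted p of 0.103. The adjusted p of this pair was 0.137 without Transwell replicate 1, 2 or 4, and 0.0686 without any other single array. Without gut-on-chip replicate 1, 2 or 4 the adjusted p was 0.0571 for HK2 minus HK1, PFKP minus PFKL and ALDOA minus ALDOC, and without any 1 of the 4 gut-on-chip arrays it was 0.0686 to 0.0857 for PKM minus PKLR.

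**Figure D3:**
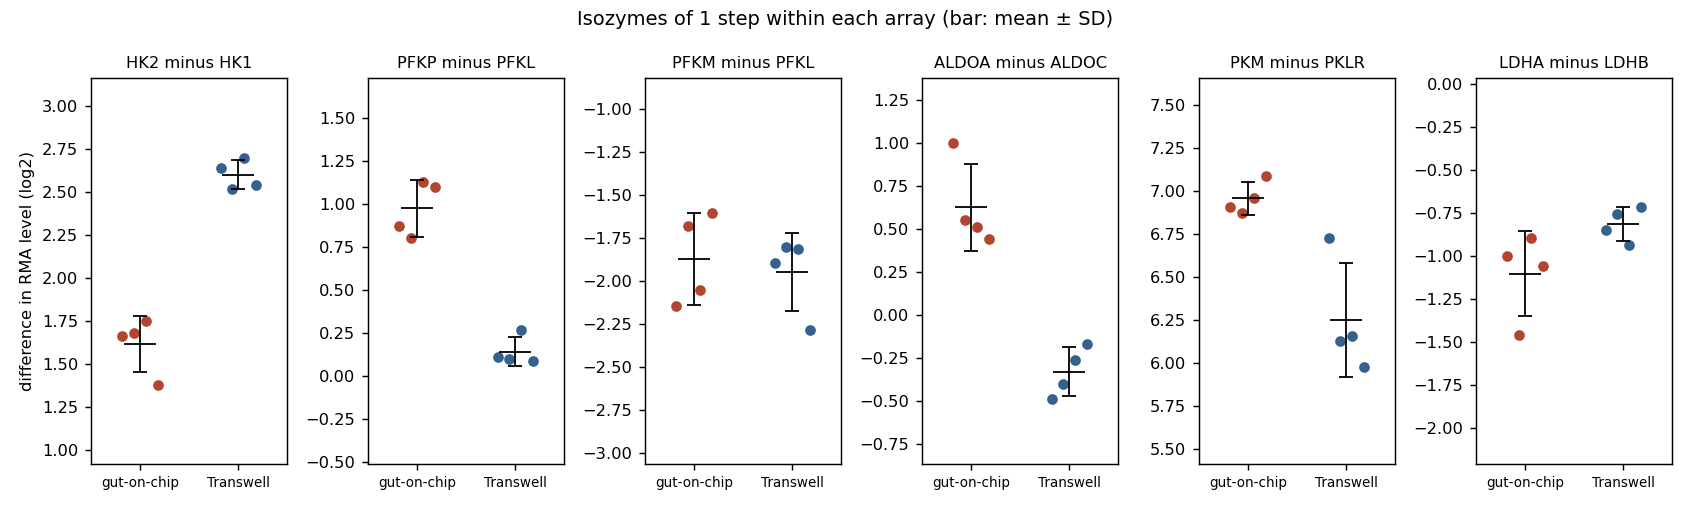
Difference between the RMA levels of a pair of isozymes within each array (y axis, log2, each panel spanning the same range) for 4 gut-on-chip arrays (red) and 4 Transwell arrays (blue), with the mean and SD of each group. HK2 minus HK1 averages 1.62 in gut-on-chip cells and 2.60 in Transwell cells, PFKP minus PFKL averages 0.98 in gut-on-chip cells and 0.14 in Transwell cells, and PFKM minus PFKL overlaps.

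The enzymes varied more among gut-on-chip arrays than among Transwell arrays. The SD of the gut-on-chip was the larger for each of the 10 enzymes, with a median of 0.148 in gut-on-chip cells and 0.060 in Transwell cells. This was so for 57.9% of all genes, and for 74.6% of those within the enzymes' range of mean level, where the median SD was 0.153 in gut-on-chip cells and 0.095 in Transwell cells. PGK1 had an SD of 0.133 in gut-on-chip cells and 0.017 in Transwell cells, and its gut-on-chip replicate 4 stood above the other 3.

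Deviations of each array from the mean of its group were used to see which enzymes varied together, over the same 8 arrays and mostly through the 4 of the gut-on-chip. Of 45 pairs of enzymes, 20 had a positive correlation and 25 a negative one, so the enzymes did not all deviate together. HK2 and PFKL (r = 0.90), PFKM and LDHB (r = 0.89), HK1 and PFKL (r = 0.88) and PGK1 and LDHA (r = 0.82) deviated in the same direction. HK2 ran opposite to PGK1 (r = -0.90) and to LDHA (r = -0.88). In gut-on-chip replicate 4, HK2 lay 0.35 below the mean of its group (a deviation of -0.35), whereas PGK1 lay 0.20 and LDHA 0.21 above it. HK1 and PFKL, which moved in opposite directions between the systems, therefore deviated together within them.

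The mean of 6 proliferation markers was 7.39, 8.55, 7.91 and 8.41 in the gut-on-chip arrays, against 7.57, 7.47, 7.42 and 7.48 in the Transwell arrays. Gut-on-chip replicates 2 and 4 were highest, as they were among gut-on-chip arrays for LDHB and PFKM, whose deviations had correlations of 0.87 and 0.65 with those of the list over 8 arrays, while ALDOA had one of -0.66. Of these markers, PCNA was upregulated (log2FC = 0.65, FDR = 0.00306, at most 0.0124 with 1 array left out, Transwell replicate 4), and the other 5 did not pass the test. The part of proliferation in the levels of these enzymes was not tested.

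**Figure D4:**
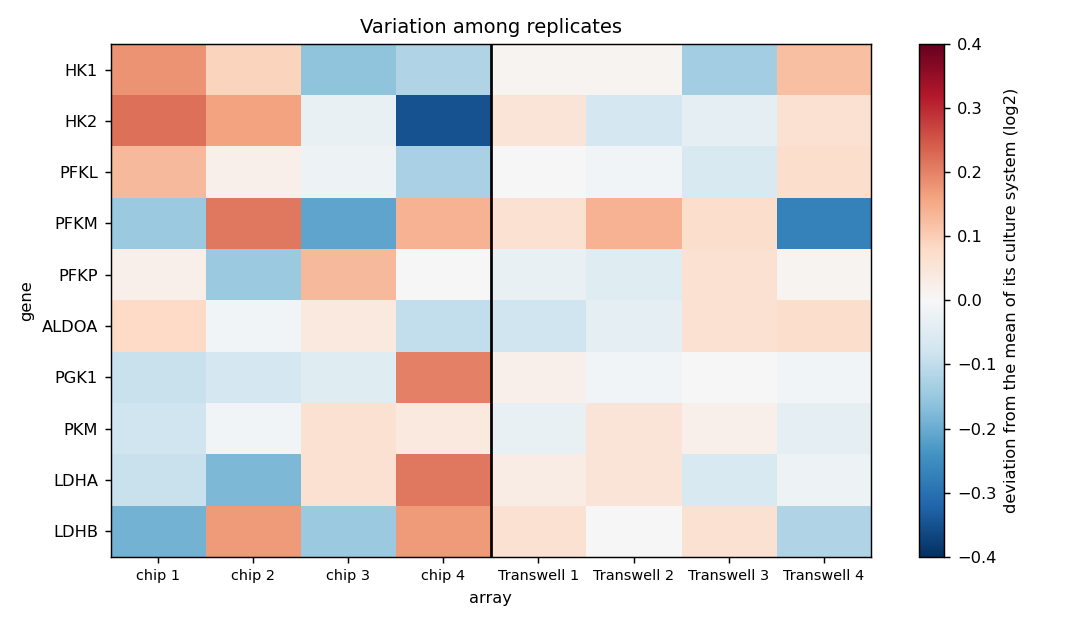
Deviation of each array from the mean of its culture system (colour, log2 scale) for the 10 enzymes (rows) in 4 gut-on-chip and 4 Transwell arrays (columns). Gut-on-chip columns are the more coloured, and in replicate 4 HK2 (-0.35) and LDHA (0.21) have opposite signs.

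By a rule set on the mean of the enzymes' levels, each centred on its own mean, the genes with the most similar course over the 8 arrays were ZNF680 (r = 0.939), ECEL1P2 (0.937), CEP250 (0.937), TMTC3 (0.934) and TRBV29-1 (0.920). That mean moved little, between -0.029 in gut-on-chip replicate 3 and 0.027 in replicate 2, and none of these 5 genes passed the test, with log2FC values from -0.07 to 0.27. They were picked as the highest among all other genes over 8 arrays, so their r values are no evidence of a link. ECEL1P2 (mean level 2.57 in gut-on-chip cells and 2.47 in Transwell cells) and TRBV29-1 (2.91 in gut-on-chip cells and 2.64 in Transwell cells) lay near the array medians.

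The rest of the pathway was read from lists of other genes. Of 16 other measured glycolytic genes, 1 passed the test upward and 3 downward, and 12 did not pass it, with a median log2FC of -0.10. HKDC1, a further hexokinase whose gene is the neighbour of HK1 in RefSeq, had levels of 8.60, 9.41, 9.0 and 9.17 in the gut-on-chip arrays, against 7.98, 7.98, 7.91 and 7.76 in the Transwell arrays. Its 4 gut-on-chip arrays were all higher (log2FC = 1.14, FDR = 5.42e-04 from limma), as those of HK1 were. ALDOC (log2FC = -1.01), TPI1, which encodes triosephosphate isomerase (-0.68), and the enolase gene ENO1 (-0.65) were downregulated. The FDR of ENO1 was 0.00865 and at most 0.0302 with 1 array left out, Transwell replicate 3. GPI, whose product isomerises glucose-6-phosphate, had a log2FC of -0.10 (FDR = 0.358). PKLR had a log2FC of -0.76 with an FDR of 0.0224.

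Genes that set the level of fructose-2,6-bisphosphate, the allosteric activator of phosphofructokinase, moved in both directions. Of 6 genes in this list of regulators, 2 passed the test upward and 3 downward, and 1 did not pass it. PFKFB3, which encodes a form of the bifunctional enzyme that favours synthesis, had levels of 7.55, 7.62, 8.20 and 7.80 in the gut-on-chip arrays, against 6.70, 6.85, 6.89 and 6.99 in the Transwell arrays (log2FC = 0.93, FDR = 0.0011 from limma). TIGAR, whose product breaks the activator down, was upregulated too (log2FC = 1.42, FDR = 9.71e-05). PFKFB1, the liver form (log2FC = -1.90), PFKFB4 (-1.35) and GCKR, which encodes the regulator of glucokinase (-1.30), were downregulated. The FDR of GCKR was 0.00929 and at most 0.0327 with 1 array left out, Transwell replicate 2. PFKFB2 had a log2FC of -0.10 (FDR = 0.681). These genes act on the step at which PFKL was downregulated, except for GCKR.

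Of 10 measured carriers of sugars, lactate and pyruvate, 1 passed the test upward and 5 downward, and 4 did not pass it. SLC2A1, the widely expressed glucose carrier GLUT1, had levels of 11.13, 11.33, 11.31 and 11.46 in the gut-on-chip arrays, against 10.69, 10.68, 10.64 and 10.63 in the Transwell arrays. The gut-on-chip arrays were all higher (log2FC = 0.65, FDR = 1.32e-04 from limma). The downregulated ones included the fructose carrier gene SLC2A5 (-3.53), the sodium-glucose cotransporter gene SLC5A1 (-3.24), SLC2A2, the low-affinity carrier GLUT2 (-1.25), and the monocarboxylate transporter gene SLC16A4 (-0.87). BSG, which encodes the chaperone of lactate transporters, had a log2FC of -0.09 (FDR = 0.399).

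Pyruvate dehydrogenase commits pyruvate to mitochondria and is switched off by kinases. Of 10 measured genes of the complex, its kinases and its phosphatases, 3 passed the test upward and 2 downward, and 5 did not pass it. Among the kinases, PDK3 (log2FC = -1.68) and PDK1 (-1.40) were downregulated and PDK4 was upregulated (1.45, FDR = 5.34e-04 from limma). PDK1 had levels of 8.16, 7.56, 7.75 and 7.56 in the gut-on-chip arrays, against 9.08, 9.13, 9.27 and 9.14 in the Transwell arrays. The phosphatase gene PDP1 was upregulated (0.71, with an FDR of 0.00631 and at most 0.0228 without Transwell replicate 2). DLAT, a core subunit of the complex, had a log2FC below 0.01 in size and an FDR of 0.979.

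Gluconeogenesis runs the pathway in reverse. Of 8 gluconeogenesis genes, 6 passed the test downward and none upward, and 2 did not pass it, with a median log2FC of -1.25. G6PC1 (-6.99), FBP1, the enzyme that opposes phosphofructokinase (-3.13), PC (-1.76) and SLC37A4 (-1.28) had the largest decreases among them, and G6PC3 had a log2FC of 0.43 (FDR = 0.0214). FBP1 had levels of 3.60, 2.71, 3.69 and 3.01 in the gut-on-chip arrays, against 6.13, 6.38, 6.45 and 6.55 in the Transwell arrays. Of 5 measured pentose phosphate genes, PGLS was downregulated (-0.53, with an FDR of 0.00892 and at most 0.0325 without Transwell replicate 4), and the other 4 did not pass the test, with TKT at 0.19 (FDR = 0.209).

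Of 13 transcription and splicing factor genes known for acting on glycolytic genes, 1 passed the test upward and 1 downward, and 11 did not pass it. EPAS1, which encodes HIF-2 alpha, was upregulated (0.64, FDR = 7.3e-04 from limma), and MLXIPL, which encodes the glucose-sensing factor ChREBP, was downregulated (-1.39, FDR = 5.3e-05). HIF1A, named after its values were seen, had a log2FC of 0.09 (FDR = 0.616), and PTBP1, a splicing factor that favours the M2 form of PKM, of 0.18 (FDR = 0.0467). Of 10 measured hypoxia targets outside glycolysis, 2 were upregulated and 3 were downregulated. ADM (0.73) and P4HA1 (0.28) were the upregulated ones, and NDRG1 (-0.82), VEGFA (-0.63) and EGLN1 (-0.52) the downregulated ones, while DDIT4 had a log2FC of 0.42 (FDR = 0.017). With 1 array left out, the FDR was at most 0.0118 for ADM (Transwell replicate 2), 0.0243 for P4HA1 (Transwell replicate 3) and 0.0142 for EGLN1 (Transwell replicate 1).

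Over all these lists, 10 of 78 genes were upregulated and 24 were downregulated, which is 43.6%, beside 2 of the 10 enzymes. The share was 15.8% over all genes and 35.4% over genes within the enzymes' range of mean level. The lists were chosen with earlier results of these data known, and no test was made of the difference between them and the enzymes.

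**Figure D5:**
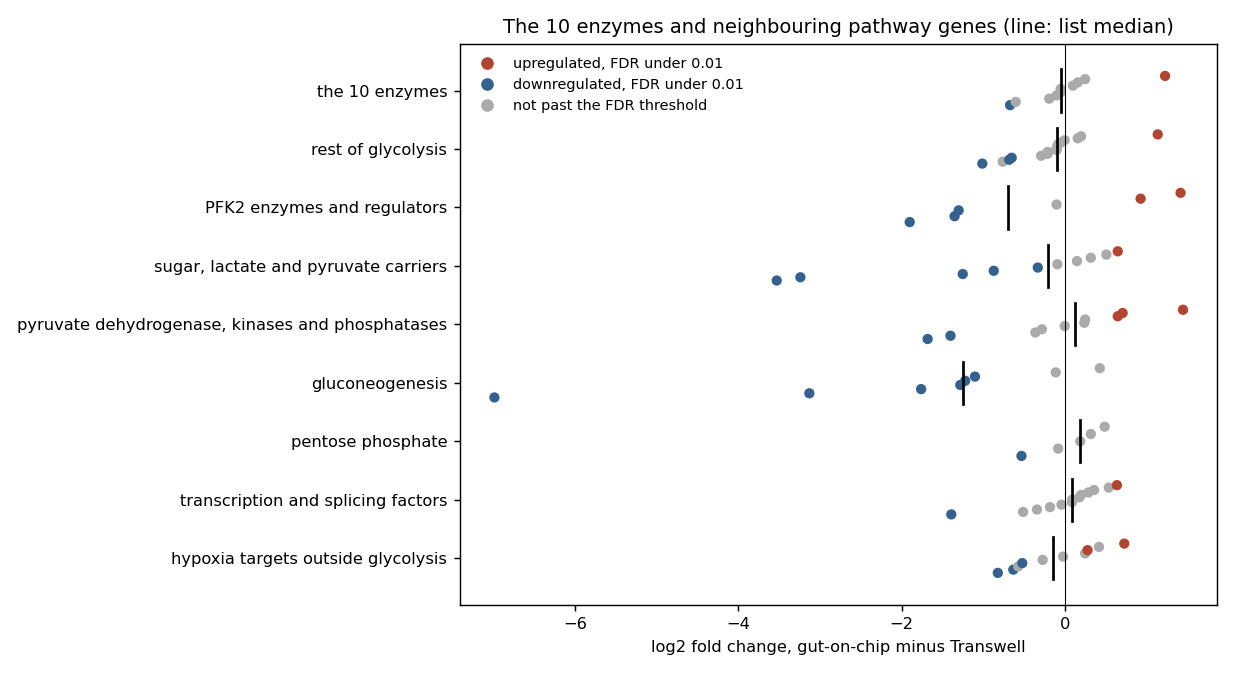
Log2 fold change, gut-on-chip minus Transwell (x axis), of the 10 enzymes and of the genes of 8 neighbouring lists (rows), each point a gene and each black line the median of its list. The enzymes have a median of -0.05, and gluconeogenesis has a median of -1.25 with G6PC1 at -6.99.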

How the data were processed

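Total RNA of Caco-2 cells from 4 gut-on-chip and 4 Transwell samples was measured on Affymetrix Human Gene arrays. Values were deposited by the authors on the log2 scale after RMA (software version not given in the sources used here), which corrects background, equalises array quantiles and summarises probes, so a change shared by all genes cannot be seen. The methods describe custom gene-level probe sets, whereas the deposited table holds 53617 probe sets. Through the platform annotation 23866 probe sets had 1 symbol, 1852 several and 27899 none. Only the first kind was named, with the brightest probe set per gene.

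Linear models in limma 3.58.1 (R 4.3.3) contrasted both culture systems with no block and, after the intensity-based moderation named in the methods, with a variance prior that follows mean level through loess of span 0.3 (3.9 prior and 6 residual degrees of freedom). P-values were two-sided and adjusted over every probe set (Benjamini-Hochberg), and an FDR under 0.01 was required. The fit was tested on simulated data. The median residual SD was 0.227, and the number of arrays limits the precision. Intervals of 95% come from the same fit. Isozyme pairs were compared with exact permutation tests (scipy 1.17.1). Promoter sequences are from RefSeq (GRCh38.p14).

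The enzymes, the gene lists and the tests were chosen with earlier results of these data known. The rule named the 10 enzymes and allowed, of each list, up to 4 called genes with the largest change, any against the majority and the brightest one not called. EPCAM, CDX2, CD3E, PTPRC, HIF1A and, as a member of an isozyme pair, PKLR were named outside it, after their values were seen. Alternatives were other variance moderation, normalization, filters on probe sets, array weights, blocking on replicate number, omission of single arrays, the mean of a gene's probe sets and an FDR of 0.05.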

Additional observations from a re-analysis of the deposited data

Results flagged for a closer look

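Among 156 groups of 4 arrays examined, of which 20 are the enzymes in 1 culture system each, 4 held an array whose gap to its nearest neighbour took up most of the range of the group (Dixon's test at the 95% level). Chance gives about 1 in 20, so 4 of 156 is not more than chance would give. PGK1 was at 8.51 in gut-on-chip replicate 4 and at 8.22 to 8.26 in the other gut-on-chip arrays. For PFKP minus PFKL, Transwell replicate 3 had 0.27 and its group otherwise 0.09 to 0.11. For PKLR, Transwell replicate 1 had 3.75 and its group otherwise 4.37 to 4.50. P4HA1, the proline hydroxylase gene among the hypoxia targets, was at 11.11 in gut-on-chip replicate 1 and at 11.23 to 11.25 in the other gut-on-chip arrays.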

How the results depend on the processing

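HK1 and PFKL kept their direction and their call under all 17 alternatives, and the 7 enzymes other than PFKM kept their direction and stayed without a call. PFKM had a log2FC of -0.63 after quantile normalization again (FDR = 0.00818) and of -0.60 among brighter probe sets (FDR = 0.00661) and among probe sets with 1 symbol (FDR = 0.00337), each past the threshold, and it also passed at an FDR of 0.05. With 1 array left out its log2FC was -0.69 to -0.53 and its FDR 0.00876 to 0.0425, and it passed only without Transwell replicate 4. Under the 12 remaining alternatives of the 17 it stayed without a call, with an FDR of 0.0356 for the replicate block. Averaging a gene's probe sets changed no value of the enzymes, which have 1 each.

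Over all probe sets, 3372 were called with the replicate block and 8263 at an FDR of 0.05, beside 5129. Deviations of arrays with the same replicate number had correlations between -0.0429 and 0.0031, and gut-on-chip replicate 3 correlated best with Transwell replicate 2 (0.0646). No pairing by replicate number was thus detected, which does not exclude that samples were handled in pairs. The block changed no call of the enzymes. For isozyme pairs the smallest exact p that a block allows is 0.125. With the block the adjusted p was 0.188 for HK2 minus HK1 (-0.98), PFKP minus PFKL (0.83), ALDOA minus ALDOC (0.95) and PKM minus PKLR (0.71). Without the block it was 0.0429 for each, which is above 0.01 too. With 1 array left out the differences were -1.03 to -0.90, 0.78 to 0.89, 0.83 to 1.02 and 0.62 to 0.87 for these pairs, and -0.35 to -0.17 for LDHA minus LDHB. PFKM minus PFKL lay between -0.03 and 0.17 and turned negative without gut-on-chip replicate 4 (-0.01) or Transwell replicate 4 (-0.03). Of 41 named genes that passed the test, 30 passed under every alternative of the fit and with each array left out. Counts of enzymes called were 2 or 3, and those of list genes 26 to 44 beside 34. Dim probe sets have no detection calls, which limits what can be said of low levels.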
